A study of Mus musculus with 4 samples.

Results

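Genes that hold back cell division, namely the cyclin-dependent kinase inhibitors of the Cip/Kip and INK4 families, the pocket proteins and p53, were followed through a comparison of sorted mouse cells from fetal liver and adult bone marrow. The 10 genes, out of 37996 features in the table, were chosen by name: Cdkn1a, Cdkn1b, Cdkn2a, Cdkn2b, Cdkn2c, Cdkn2d, Rb1, Rbl1, Rbl2 and Trp53. C57BL/6 primary cells were isolated by FACS, 2 libraries were made from fetal liver and 2 from adult bone marrow, and RNA was sequenced after low-input SMARTer amplification, and the series concerns a stem cell niche at portal vessels of the fetal liver. No allele, treatment, age in days or sort marker is given in the sources used here, nor whether different animals stand behind the libraries, so a p-value here covers only the spread between samples, which may be technical. In bulk samples, fewer cells of a type and less RNA per cell cannot be told apart.

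The deposited table gives many gene labels beside the values of other features, so each label was placed again before its value was read, as described with the processing. A label was placed at a posterior probability of at least 0.95. Of the 10 genes, 9 carried a label and 8 could be placed. Cdkn2d, an INK4 inhibitor, had no label, and Cdkn1b, the second Cip/Kip inhibitor, could not be tied to 1 feature, so both were treated as not measured. Levels are the authors' normalized reads, which are reads divided by a size factor per library. The reads of each single library were recovered from the authors' group means, and within a group a library is named the deeper or the shallower one, since replicate numbers could not be matched to the recovered reads. Fetal liver libraries held 2546089 and 868246 recovered reads, and bone marrow libraries 858720 and 223361.

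Cells enter the division cycle when cyclin D with Cdk4 or Cdk6, and then cyclin E with Cdk2, phosphorylate the pocket proteins, which otherwise bind E2F transcription factors and keep replication genes silent. INK4 proteins block Cdk4 and Cdk6, Cip/Kip proteins bind cyclin-kinase complexes more broadly, and p53 induces Cdkn1a after DNA damage and other stress. The Cdkn2a gene also encodes Arf, which binds Mdm2 and so protects p53 from degradation. Hematopoietic stem cells divide and expand in the fetal liver, whereas most of those in adult marrow are quiescent, and Cdkn2a transcripts are known to accumulate with age in many mouse tissues.

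The promoters of the genes with the widest differences, and of Cdkn1a as the best known p53 target, are shown from RefSeq on GRCm38.p6, each from 250 bases before to 50 bases after a transcript start. Capitals mark every match, on either strand, to the E2F site TTTNNCGC, the GC box GGGCGG, the E-box CACGTG and the p53 response element with at most 1 mismatch outside its central bases. The Trp53 window is on the plus strand (chr11:69580109-69580408), the Cdkn1a window at its upstream start on the plus strand (chr17:29090729-29091028), and the rest on the minus strand: Cdkn2a at its upstream start (chr4:89294570-89294869), from which Arf is made, Cdkn2a at its downstream start (chr4:89282143-89282442), from which Ink4a is made, and Cdkn2b (chr4:89310983-89311282).
Trp53: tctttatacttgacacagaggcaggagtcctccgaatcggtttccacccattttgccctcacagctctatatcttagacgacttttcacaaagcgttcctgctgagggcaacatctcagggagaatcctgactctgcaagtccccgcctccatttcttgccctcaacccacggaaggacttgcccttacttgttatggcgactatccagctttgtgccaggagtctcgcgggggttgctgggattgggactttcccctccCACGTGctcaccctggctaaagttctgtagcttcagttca
Cdkn1a, upstream start: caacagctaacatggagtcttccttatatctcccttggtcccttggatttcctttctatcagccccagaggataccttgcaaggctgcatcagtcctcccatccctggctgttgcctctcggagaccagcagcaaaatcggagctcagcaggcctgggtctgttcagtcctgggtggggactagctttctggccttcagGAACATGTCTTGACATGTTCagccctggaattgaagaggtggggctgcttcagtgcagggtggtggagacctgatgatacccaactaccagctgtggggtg
Cdkn2a, upstream start: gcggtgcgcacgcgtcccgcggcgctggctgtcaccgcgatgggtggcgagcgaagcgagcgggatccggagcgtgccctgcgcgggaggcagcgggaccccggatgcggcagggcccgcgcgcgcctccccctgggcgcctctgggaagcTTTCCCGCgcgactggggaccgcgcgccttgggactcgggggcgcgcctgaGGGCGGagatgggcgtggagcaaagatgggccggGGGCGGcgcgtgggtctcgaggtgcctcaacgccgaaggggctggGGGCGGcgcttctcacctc
Cdkn2a, downstream start: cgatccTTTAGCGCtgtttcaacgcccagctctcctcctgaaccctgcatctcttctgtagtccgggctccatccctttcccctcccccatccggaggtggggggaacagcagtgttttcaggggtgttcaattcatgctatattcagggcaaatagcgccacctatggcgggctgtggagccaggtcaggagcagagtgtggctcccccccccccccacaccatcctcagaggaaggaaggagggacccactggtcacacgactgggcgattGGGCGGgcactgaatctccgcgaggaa
Cdkn2b: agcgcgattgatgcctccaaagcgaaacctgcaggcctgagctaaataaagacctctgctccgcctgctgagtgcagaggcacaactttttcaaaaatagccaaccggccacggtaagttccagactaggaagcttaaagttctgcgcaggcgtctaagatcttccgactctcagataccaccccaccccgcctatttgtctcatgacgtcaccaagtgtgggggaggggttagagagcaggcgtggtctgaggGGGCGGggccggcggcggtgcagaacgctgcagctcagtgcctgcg

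The 20-base p53 response element in the Cdkn1a window begins 51 bases before that start, and such an element was found in 18 of 32851 RefSeq promoters of this length (0.0548%). The Trp53 window held an E-box, as did 7.15% of those promoters. Both Cdkn2a windows held an E2F site, as did 5.17% of those promoters, and the Cdkn2b window held a GC box, as did 35.7%. The Cdkn2b start lies 16.4 kb from the upstream Cdkn2a start, and the 2 Cdkn2a starts lie 12.4 kb apart. A match is a description of letters in the window. RefSeq promoters were found by symbol for 9 of the 10 genes, and Rb1 is not among them.

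Trp53 was the single member that passed the authors' test, and it was higher in fetal liver. Trp53, the gene of the transcription factor p53, stood at 95.1 and 101 normalized reads in the deeper and shallower fetal liver libraries, against 20.3 and 31.5 normalized reads in the deeper and shallower bone marrow libraries. Both fetal liver libraries were above both bone marrow libraries, and the 2 fetal liver values were close to each other. The means in the authors' deposited table were 98.1 in fetal liver and 25.9 in bone marrow, a ratio of 3.79 (unadjusted p = 0.00125, adjusted p = 0.0331). Behind these values lay 336 recovered reads in fetal liver and 41 in bone marrow. On recovered reads, limma with Benjamini-Hochberg adjustment over 16501 features gave a log2 difference of 1.91 ± 0.41 (SE, 2 libraries per group, adjusted p = 0.00294). Leaving out each library in turn gave ratios from 3.12 to 4.84. The adjusted p lies above the stricter threshold of 0.01. A processed pseudogene, Trp53-ps, could share reads with Trp53, and the authors' deposited table lists it at 0 in fetal liver and at 2.11 in bone marrow.

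**Figure D1:**
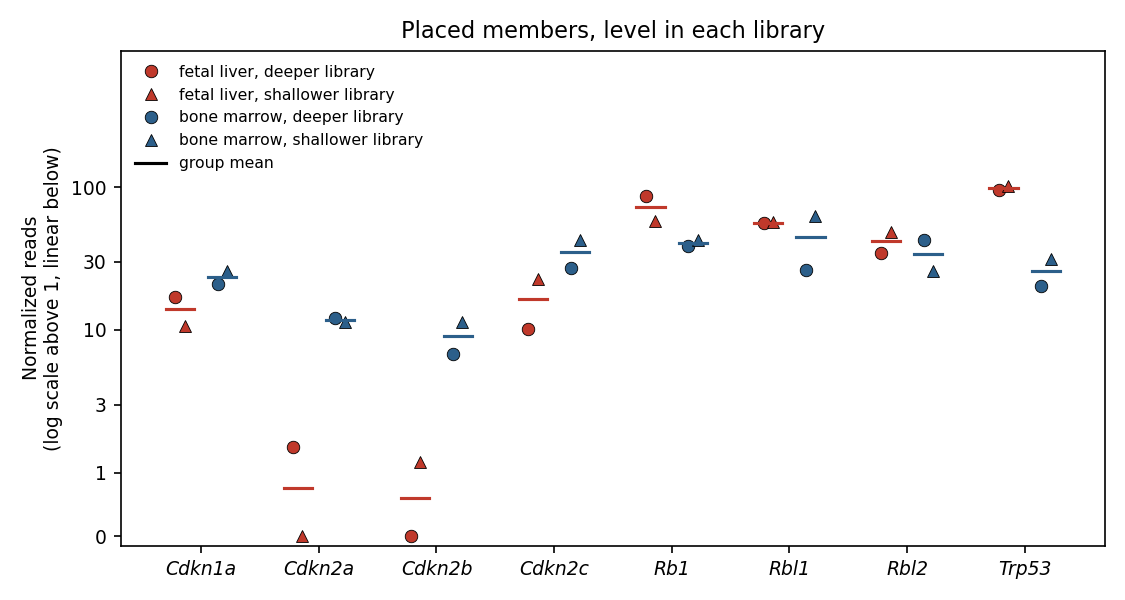
Normalized reads of the 8 placed genes in each library (vertical axis, logarithmic above 1 and linear below), with fetal liver left of bone marrow, circles for deeper and triangles for shallower libraries and a line at the group mean. Trp53 lies near 98.1 in fetal liver and 25.9 in bone marrow, while Cdkn2a and Cdkn2b average 0.758 and 0.595 in fetal liver and 11.8 and 9.10 in bone marrow.

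Of the 8 placed genes, 1 was called higher and 0 were called lower by the authors' adjusted p-value under 0.05. Over all 35605 tested features the same rule called 1467 higher (4.12%) and 46 lower (0.129%) in fetal liver. Without adjustment, at p under 0.05, 1 of the 8 placed genes was higher and 2 were lower in the authors' deposited table, where 8.69% of tested features were higher and 2.40% lower. Limma with Benjamini-Hochberg adjustment called the same 1 gene, Trp53, higher and 0 lower among the 6 placed genes with a mean of at least 10 normalized reads, where it called 19.2% of 16501 features higher and 2.87% lower. Of these 6 genes, Trp53 and Rb1 had both fetal liver libraries above both bone marrow libraries, and Cdkn1a and Cdkn2c had both below. Over 16506 features with such a mean, 37.3% lay above in this sense and 26.4% below. With 2 libraries a group, an exact two-sided permutation test cannot give a p under 0.333, so none was run.

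The 3 placed INK4 genes, which encode inhibitors of Cdk4 and Cdk6, had lower values in both fetal liver libraries than in either bone marrow library, and none passed the adjusted test. Over all 35585 tested features with recovered reads, 27.3% lay below in this way. Cdkn2a, which encodes Ink4a and Arf, stood at 1.52 and 0 normalized reads in the deeper and shallower fetal liver libraries, against 12.2 and 11.4 normalized reads in the deeper and shallower bone marrow libraries. The bone marrow values were close to each other but came from 18 reads and 4 reads, and those of fetal liver came from 4 reads and 0 reads. Means of 0.758 in fetal liver and 11.8 in bone marrow in the authors' deposited table gave a ratio of 0.0642 (unadjusted p = 0.0448, adjusted p = 0.423). Counted reads summed to 4 in fetal liver and 22 in bone marrow, which is a ratio of 0.0956 per summed size factor (exact 95% counting interval 0.0240 to 0.281). The ratio was 0.128 without the shallower fetal liver library and 0.0623 to 0.0663 without 1 or the other bone marrow library, and without the deeper fetal liver library no read remained in fetal liver. A count at the level of the gene cannot separate Ink4a from Arf transcripts.

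Cdkn2b, the neighbouring INK4 gene induced by TGF-beta, stood at 0 and 1.19 normalized reads in the deeper and shallower fetal liver libraries, against 6.76 and 11.4 normalized reads in the deeper and shallower bone marrow libraries. The fetal liver group held 1 read in all, so the gene was barely detected there, whereas bone marrow held 14 reads. The means in the authors' deposited table were 0.595 in fetal liver and 9.10 in bone marrow, a ratio of 0.0654 (unadjusted p = 0.0459, adjusted p = 0.430). The ratio of summed reads was 0.0376, with an exact 95% counting interval of 0.000888 to 0.247. The ratio of means was 0.131 without the deeper fetal liver library and 0.052 to 0.088 without 1 or the other bone marrow library, and without the shallower fetal liver library no read remained in fetal liver. A count of 0 in the deeper fetal liver library allows up to 3 reads, or 1.14 normalized reads, and a count of 0 in the shallower one up to 3.57 normalized reads. Both genes lay under the minimum mean of 10 for limma, and all these intervals and limits cover counting error only.

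Cdkn2c, the INK4 inhibitor also called p18, was detected in every library. It stood at 10.2 and 22.6 normalized reads in the deeper and shallower fetal liver libraries, against 27.0 and 42.9 normalized reads in the deeper and shallower bone marrow libraries. The gap between the highest fetal liver and the lowest bone marrow value was smaller than the spread within either group. Group means were 16.4 in fetal liver and 35 in bone marrow in the authors' deposited table, a ratio of 0.469 (unadjusted p = 0.199, adjusted p = 0.872). Limma gave a log2 difference of -1.11 ± 0.54 (SE, Benjamini-Hochberg adjusted p = 0.153). The counting interval of the summed reads, 0.291 to 0.663, lay below 1, and the tests that include the spread between libraries did not pass. Without the shallower fetal liver library the ratio was 0.293, and the highest ratio without any 1 library was 0.646.

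**Figure D2:**
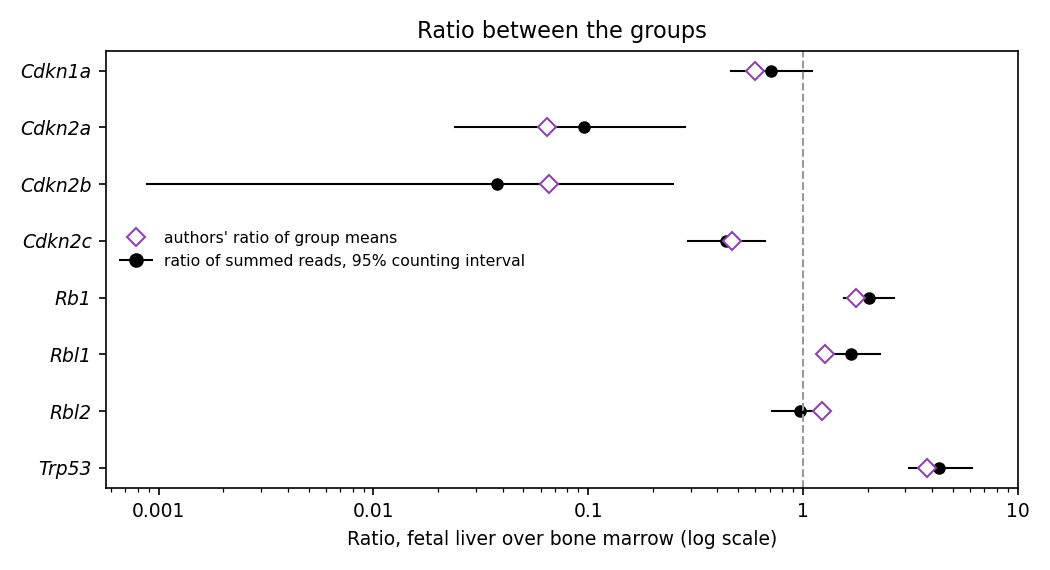
Ratio of fetal liver over bone marrow for the 8 placed genes (horizontal axis, logarithmic), as the authors' ratio of group means (diamonds) and as the ratio of summed reads per summed size factor with its exact 95% counting interval (circles and bars). Trp53 at 3.79 and Rb1 at 1.77 lie right of 1, and Cdkn2a and Cdkn2b, at 0.0642 and 0.0654, lie farthest to the left.

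Cdkn1a, the Cip/Kip inhibitor that p53 induces and whose upstream promoter holds the p53 element, did not pass the test. It stood at 17.1 and 10.7 normalized reads in the deeper and shallower fetal liver libraries, against 20.9 and 25.7 normalized reads in the deeper and shallower bone marrow libraries. Both fetal liver values were below both bone marrow values, by a margin smaller than the spread within fetal liver. The means in the authors' deposited table were 13.9 in fetal liver and 23.3 in bone marrow, a ratio of 0.595 (unadjusted p = 0.602, adjusted p = 1), and limma gave -0.74 ± 0.57 on the log2 scale (SE, Benjamini-Hochberg adjusted p = 0.369). Trp53 and Cdkn1a thus had ratios on opposite sides of 1, of which only that of Trp53 passed, and the difference between them was not tested.

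The 3 pocket protein genes, all placed, were detected in every library, and none passed the test. Rb1, the gene of the retinoblastoma protein, stood at 86.0 and 58.3 normalized reads in the deeper and shallower fetal liver libraries, against 38.5 and 42.9 normalized reads in the deeper and shallower bone marrow libraries. Both fetal liver values were above both bone marrow values, and the fetal liver values were the more widely spread. For Rb1 the authors' deposited table gives means of 72.1 in fetal liver and 40.7 in bone marrow, a ratio of 1.77 (unadjusted p = 0.136, adjusted p = 0.748). Limma gave a log2 difference of 0.79 ± 0.40 for Rb1 (SE, Benjamini-Hochberg adjusted p = 0.174). The summed reads of Rb1, 276 in fetal liver and 72 in bone marrow, gave a ratio of 2.02 with an exact 95% counting interval of 1.55 to 2.65.

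Rbl1, the gene of the pocket protein p107, stood at 55.7 and 57.1 normalized reads in the deeper and shallower fetal liver libraries, against 26.3 and 62.9 normalized reads in the deeper and shallower bone marrow libraries. The shallower bone marrow library was the highest of the 4 and the deeper one the lowest, so the groups overlapped. The ratio of means in the authors' deposited table was 1.26 (56.4 in fetal liver, 44.6 in bone marrow, adjusted p = 0.940), and it was 0.896 when the deeper bone marrow library was left out and 2.14 when the shallower one was. Rbl2, the gene of the pocket protein p130 that dominates in resting cells, stood at 34.5 and 48.8 normalized reads in the deeper and shallower fetal liver libraries, against 42.6 and 25.7 normalized reads in the deeper and shallower bone marrow libraries. Here too the groups overlapped. The means in the authors' deposited table were 41.6 in fetal liver and 34.1 in bone marrow, a ratio of 1.22 (adjusted p = 1), and ratios without 1 library ran from 0.978 to 1.62. The summed reads of Rbl2 gave a ratio of 0.964, on the other side of 1, with an exact 95% counting interval of 0.718 to 1.30. Limma differences on the log2 scale were 0.46 ± 0.45 for Rbl1 and 0.30 ± 0.44 for Rbl2 (SE, Benjamini-Hochberg adjusted p = 0.489 and 0.656).

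Some reads could belong to overlapping genes, because no source states that strand was kept. In GENCODE M21, exons of Rb1 share 408 bases with Lpar6 and 488 bases with Rcbtb2 on the opposite strand. Exons of Rbl2 share 693 bases with Aktip and 892 with a noncoding transcript on the opposite strand, and those of Cdkn1a share 273 bases with a transcript model of unknown function. No exonic overlap was found for Trp53, Cdkn2a, Cdkn2b, Cdkn2c or Rbl1.

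Levels of different genes were compared per kb of exon, with the exonic length of all GENCODE M21 transcripts of a gene joined. The submitters' notes name mm9, and the transcripts in use are not known, so an order between genes also depends on these lengths. In fetal liver, Trp53 had the highest level per exonic length, at 24.2 normalized reads per kb (23.5 in the deeper and 25 in the shallower library), followed by Rb1 at 12.0 (14.3 and 9.69) and Rbl1 at 9.41 (9.29 and 9.52). Trp53 stood clear of both, and the lower library of Rb1 lay just above the higher library of Rbl1. Then came Cdkn2c at 6.11, Rbl2 at 5.51 and Cdkn1a at 3.91 normalized reads per kb in fetal liver, whose library values overlapped from neighbour to neighbour and lay below those of Rbl1. Cdkn2a at 0.647 and Cdkn2b at 0.428 normalized reads per kb were last in fetal liver, overlapping each other, and no library of theirs reached the lowest of the other genes.

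The order was another one in bone marrow. Cdkn2c led there at 13 normalized reads per kb (10.1 in the deeper and 16 in the shallower library), and Cdkn2a was next at 10.1 (10.4 and 9.76), with overlapping library values. Rbl1 at 7.45, Rb1 at 6.77, Cdkn1a at 6.57, Cdkn2b at 6.54, Trp53 at 6.39 and Rbl2 at 4.52 normalized reads per kb followed in bone marrow, and the library values of every 2 neighbours in this order overlapped. Trp53 thus held the first place in fetal liver and the seventh of 8 in bone marrow, where the lower places do not differ beyond the spread.

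**Figure D3:**
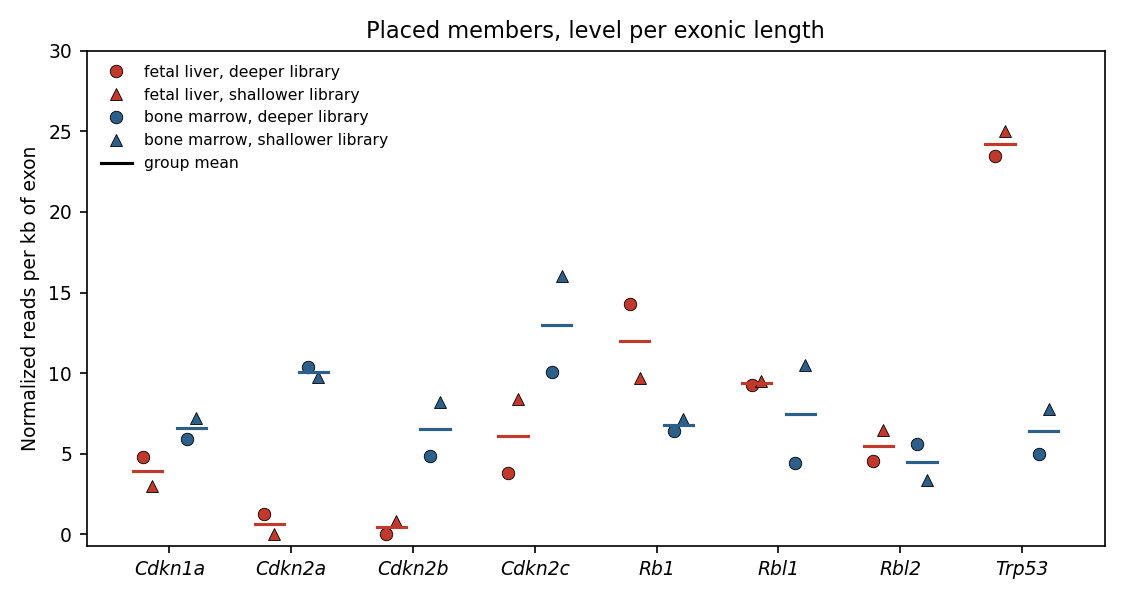
Normalized reads per kb of exon (vertical axis, linear) of the 8 placed genes in each library, with fetal liver left of bone marrow, circles for deeper and triangles for shallower libraries and a line at the group mean. In fetal liver Trp53 stands apart at 24.2, while in bone marrow the genes lie between 4.52 and 13.

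Of 17 genes of cyclins, their kinases and the Cdc25 phosphatases that activate these kinases, 8 passed the authors' test as higher in fetal liver. Over all tested features, 4.12% did. Limma called 10 of the 17 higher, beside 19.2% of the features it tested. Among the 11 placed genes, 5 were higher at an unadjusted p under 0.05 by the authors' test, beside 8.69% of tested features. By each of these rules 0 were lower. Ccnd2, a D-type cyclin, stood at 164 and 162 normalized reads in the deeper and shallower fetal liver libraries, against 32.4 and 45.7 in the deeper and shallower bone marrow libraries (in the authors' deposited table, ratio 4.17 and adjusted p = 0.00620). Ccnd1, another D-type cyclin, stood at 101 and 103 normalized reads in fetal liver, against 25.7 and 11.4 in bone marrow (in the authors' deposited table, ratio 5.50 and adjusted p = 0.0365). The other called genes were Ccnd3, the kinase genes Cdk1 and Cdk4, the mitotic cyclin genes Ccnb1 and Ccnb2, and Ccnh, a subunit of the kinase that activates other cyclin-dependent kinases. Their labels fell on called features in every form of the placement but on no single one, so no value is given. Cdk6, the other kinase bound by INK4 proteins, was placed and not called, with 38.7 and 26.2 normalized reads in fetal liver and 25.7 and 14.3 in bone marrow, and it is named after its values were seen.

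The E2F and DREAM list holds E2F genes, dimer partners of E2F proteins, and genes of the DREAM complex or tied to it. DREAM is the repressor complex built on Rbl1 or Rbl2. The list is wider than the direct partners of pocket proteins. Of its 16 genes, 1 was called higher and 0 lower by the authors' test. Tfdp1, the dimer partner of E2F proteins, had means of 120 in fetal liver and 13.2 in bone marrow in the authors' deposited table, a ratio of 9.15 (adjusted p = 0.000412). Its libraries stood at 127 and 114 normalized reads in fetal liver, against 14.9 and 11.4 in bone marrow. Rbbp4, a histone-binding subunit of DREAM, had means of 164 in fetal liver and 57.8 in bone marrow in the authors' deposited table and was not called (adjusted p = 0.218). These counts stand beside 4.12% of all tested features called higher. Limma called 4 of the 16 higher and 0 lower, a share near the 19.2% of its background. Without adjustment, at p under 0.05, 4 of the 13 placed genes were higher and 0 lower by the authors' test, beside 8.69% of tested features higher.

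Of 14 regulators of p53 and of the Cdkn2a locus, 0 were called by the authors' test, 1 of the 10 placed was higher and 0 were lower at an unadjusted p under 0.05, and limma called 1 of the 14 higher and 0 lower. So few calls are near or below the background shares of 4.12%, 8.69% and 19.2% higher by these 3 rules. Usp7, a deubiquitinase of Mdm2 and p53, had means of 221 in fetal liver and 101 in bone marrow in the authors' deposited table (adjusted p = 0.327), and Trp53bp1, a DNA damage adaptor, had 112 in fetal liver and 100 in bone marrow (adjusted p = 1). Of 20 p53 target genes, 0 were called by the authors' test in either direction, where 4.12% of all tested features were called higher and 0.129% lower, so that 0 of 20 is near the background. At an unadjusted p under 0.05, 1 of the 17 placed target genes was higher and 0 were lower, and limma called 1 of the 20 higher and 0 lower, beside backgrounds of 8.69% and 19.2% higher. Some of the 20 target genes lay under the minimum mean of 10 for limma, so the 20 include genes that it did not test. Trp53inp1, which encodes a nuclear protein induced by p53, had means of 58.8 in fetal liver and 51.7 in bone marrow in the authors' deposited table (adjusted p = 1). Xpc, a DNA repair gene, had 41.0 in fetal liver and 66.7 in bone marrow in the authors' deposited table (adjusted p = 1).

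Of 10 labelled genes for the turnover of Cip/Kip proteins, 4 were called higher and 0 lower by the authors' test, beside 4.12% of all tested features called higher. They were Cul1, Skp1a, Rbx1 and Ddb1, subunits of cullin ubiquitin ligases, and each was called in every form of the placement without being tied to 1 feature. Among the 4 placed genes, 2 were higher and 0 lower at an unadjusted p under 0.05, and limma called 7 of the 10 higher and 0 lower, beside 8.69% and 19.2% higher over all features these rules tested. Rnf123, a ubiquitin ligase that acts on the Cdkn1b product, had means of 51.4 in fetal liver and 77.8 in bone marrow in the authors' deposited table (adjusted p = 1). Dtl, an adaptor that brings the Cdkn1a product to a cullin ligase, had 73.8 in fetal liver and 23.3 in bone marrow in the authors' deposited table (adjusted p = 0.207).

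Relatives of the chosen genes differed in their calls. Cdkn1c, the Cip/Kip gene outside the chosen 10 and an imprinted gene, was called higher in fetal liver, and its label fell on different called features in the 3 forms of the placement, with ratios from 7.09 to 35.4 in the authors' deposited table. The p53 relatives Trp63, at 14.8 in fetal liver and 35 in bone marrow, and Trp73, at 23.5 in fetal liver and 46.9 in bone marrow, were not called in the authors' deposited table (adjusted p = 0.782 and 1). Neither reached an unadjusted p under 0.05, and limma called neither. Over the 8 placed members the median log2 ratio of group means plus 1 was -0.22, beside -0.28 over all tested features and 0.11 over those with a mean of at least 10. The same median was 0.67 for 11 placed genes of cyclins, their kinases and the Cdc25 phosphatases, 0.34 for 13 E2F and DREAM genes, 0.70 for 10 p53 regulators and 0.06 for 17 p53 targets. Placed genes leave out 11 of the 14 list genes called higher, so these medians do not cover them.

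**Figure D4:**
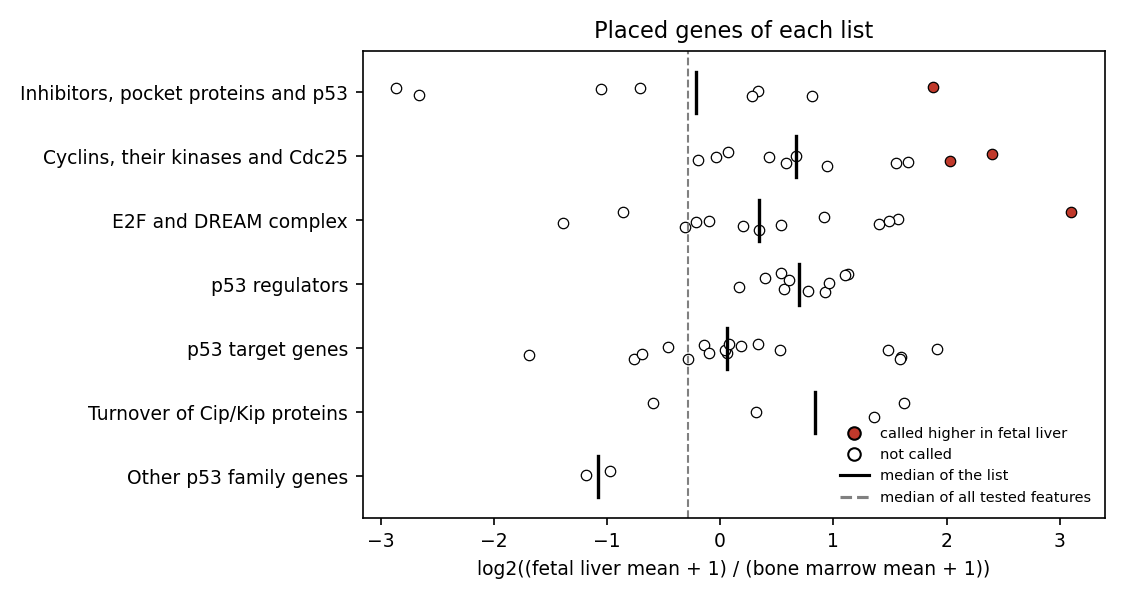
Log2 ratio of group means plus 1, fetal liver over bone marrow, for each placed gene of the 10 inhibitors, pocket proteins and p53 and of the lists around them (points), with filled points for called genes, a bar at the list median and a dashed line at the median of all tested features, -0.28. The p53 targets centre on 0.06, and the called points are Trp53, Ccnd1, Ccnd2 and Tfdp1.

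Summed levels of cell type markers were unequal between the groups and between libraries. By the authors' test 4 of 8 pericyte and 3 of 8 hepatoblast markers and 1 of 6 B cell markers were higher in fetal liver, and 1 of 7 endothelial markers was lower. Over all tested features, this test called 4.12% higher and 0.129% lower. The B cell and the endothelial call rest on a single gene each, Ebf1 and Tie1. Summed over the 4 placed of 8 pericyte markers, the deeper and shallower libraries held 593 and 1851 normalized reads in fetal liver and 67.6 and 114 in bone marrow. Acta2 alone held 267 and 1578 in fetal liver and was not called (authors' adjusted p = 0.121). Pdgfrb and Kcnj8 also had higher means in fetal liver, and Des had a lower one (13.5 against 27.9). The 5 placed of 8 hepatoblast markers summed to 462 and 369 in fetal liver and 106 and 57.2 in bone marrow. Afp alone held 260 and 285 in fetal liver. Ttr, Krt18 and Serpina1a also had higher means there, and Hnf4a had a lower one (20.3 against 27.6). For the 5 placed of 7 neutrophil and myeloid markers the sums were 35.6 and 38.0 in fetal liver and 242 and 57.2 in bone marrow. For the 4 placed of 5 osteoblast markers they were 39.4 and 265 in fetal liver and 245 and 2348 in bone marrow. S100a8 alone held 166 in the deeper bone marrow library, and Bglap and Ibsp held 1067 and 1195 in the shallower one. The other placed markers of both lists also had lower means in fetal liver. Endothelial (6 of 7 placed), erythroid (5 of 7) and B cell (3 of 6) sums lay between 64.8 and 246 in fetal liver and between 25.7 and 212 in bone marrow. No placed marker was at 0 in all libraries. The labels name no cell type beyond sorted primary cells, so there is none to check. The part of these cell types in the values of the inhibitors, pocket proteins and p53 was not tested.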

How the data were processed

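The data used are 1 table of a comparison between the groups, deposited by the authors. The submitters' processing notes name GSNAP, HTSeq, DESeq and mm9 and give no version. Per the file headers, the authors deposited for each group a mean of size-factor-scaled reads, which is a normalized read signal, the ratio (fold) of fetal liver over bone marrow, and a p-value with its adjusted p-value. Of 37996 features, 35605 had a p-value and 2391 were at 0. A feature was called at an authors' adjusted p-value under 0.05. The 10 genes and the lists around them were chosen with earlier results of these data known.

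The 33465 labels stand closed up at the top of the table, although unlabelled features lie among them. They were placed again by a hidden Markov model that kept their order and took identifiers as ascending within equal values. It used a LightGBM 4.6.0 score of gene structure (GENCODE M21, GRCm38), chromosome, identifier and symbol pattern against level and class of ratio. That ratio is fetal liver over bone marrow, so the placement is not independent of the ratios read from it. The score was made in 3 forms, and a label was placed where all 3 gave the same value at a posterior of at least 0.95. This held for 25038 of 32294 labels of tested features (77.5%). On simulated labels 99.8% of 26182 placed were right, and 98.1% of 938 placed on called features, upper estimates because the structures came from the placement itself. Genes with a probability of at least 0.95 of lying on a called feature in every form count as called.

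Whole reads per library were recovered, since a group mean adds 2 whole numbers that are each multiplied by a constant of their library. This gave a single solution for 31919 of 31921 fetal liver and 34525 of 34525 bone marrow features. As a control, a wrong constant for the shallower library was tried on a sample of features with low means. It gave 1 or more solutions for 15.7% of those in fetal liver and 20.3% in bone marrow. Features with high means were not covered by this control. Tested features had a median of 16 and 5 reads in the fetal liver libraries and 13 and 3 in those of bone marrow. Limma 3.58.1 in R 4.3.3 was run with its trend option on log2 of these normalized reads plus 1, for the 16501 features whose mean reached 10, after a test on simulated counts. The ratio of summed reads was chosen after seeing the data, and its counting intervals are exact (Clopper-Pearson, scipy 1.17.1). Genes named beside the 10 are, of each list, up to 5 placed genes called by the authors' test and, where fewer than 2 were called, the placed genes with the highest mean up to 2 in all. The cell type markers named were chosen after their values were seen. Alternatives were other tests, thresholds, placements, pseudocounts and scalings, and leaving out each library.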

Additional observations from a re-analysis of the deposited data

How the results depend on the processing

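No paired analysis was possible because the titles of the 2 groups share only replicate number 2 and the table does not tie libraries to numbers. At an adjusted p under 0.01 the authors' table called 964 features higher and 9 lower, and 0 of the 8 placed genes higher. When only features whose mean reached 10 entered the adjustment of the authors' p-values, 1817 were higher and 83 lower. Limma called 3172 higher and 474 lower, and 24 of the 81 list genes higher in place of 14. Without 1 library in turn it called 2254 to 3413 higher, 196 to 687 lower, 16 to 25 list genes higher and 0 to 1 lower. Trp53 was called in each of these but the stricter threshold. Were each label read beside its own line of the table, the log2 ratio would be -3.52 for Rb1, -1.89 for Rbl1, -1.77 for Rbl2 and -1.39 for Cdkn2a, so these values rest on the placement. The Rbl2 label does not reach a posterior of 0.99. The most probable feature of the Cdkn1b label had means of 33.4 in fetal liver and 53.9 in bone marrow, but its posterior was between 0.765 and 0.844. With 10 added to group means, the ratio was 0.494 for Cdkn2a, 0.555 for Cdkn2b and 3.01 for Trp53. Of 70 member values under alternatives, 53 moved by less than the spread between libraries and 17 by more, and Trp53 stayed above 1 in all of its own. The depth of the shallower bone marrow library, where 3 reads are worth 8.58 normalized reads, limits what low genes can show.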
